A study of Mus musculus with 24 samples.

Results

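The change in gene expression between DA1-3b/D365, a leukemia that had stayed dormant in mice for a year, and the leukemia cells it came from was measured on 7 Agilent mouse arrays, out of 24 in the whole series. The members are the 4 arrays of DA1-3b, a murine myeloid leukemia grown as parental cells in culture, and the 3 arrays of DA1-3b/D365, chosen by their titles. DA1-3b/D365 are dormant cells that were isolated from syngeneic mice on the day that stands in the name, after immunotherapy with irradiated DA1-3b cells made to overexpress IL-12, and that were then amplified in culture and frozen. Both lines therefore share the DA1-3b origin and the growth in culture, and only DA1-3b/D365 had passed through vaccinated mice. DA1-3b/D365 is a single isolated line, so that a change of dormancy and a change of this isolate cannot be told apart. The parental arrays are labelled as leukemia cells without the name DA1-3b, and the name is inferred from the single leukemia comparison of the study. The other 17 arrays of the series hold melanoma lines and entered only 1 alternative fit. Nothing in the labels says that arrays of a line came from separate cultures, so that p-values measure the spread between these arrays, which may be technical.

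Tumor dormancy is the state in which few cancer cells persist for long without growing out, held in balance with the immune system or in a slow or arrested cell cycle. Acute myeloid leukemia cells carry programs of the myeloid lineages they resemble, such as granule proteins of neutrophils and eosinophils, receptors of mast cells and basophils, or surface receptors of macrophages. Gene classes that are often examined in dormant cells include cell cycle inhibitors, stress responses, interferon targets and immune inhibitory surface proteins, and these were among the lists examined here.

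A value below is the log2 intensity of the brightest probe of a gene minus the 75th percentile of its array, and 1 unit is a doubling of the signal relative to that percentile. Among lists written with earlier results of these data known, those of blood cell identity and the immune response held the largest shares past the threshold. Translation, chromatin and the cell cycle gave hardly any gene past it. A gene was tested when 3 or more of the 7 arrays had it well above the background. Of 23036 such genes and transcripts, 249 passed an adjusted p of 0.05 in limma, which is 1.08% of those tested. The dormant line was higher for 115 of them, 0.499% of all tested, and lower for 134, 0.582%. At an unadjusted p under 0.05 there were 1597. The lowest dormant array was above the highest parental array for 5.03% of all tested, and the highest dormant array was below the lowest parental array for 3.33%. Median change over all tested was -0.02, and 47.4% were positive. The 249 changes had a median size of 2.47 and a largest size of 7.87 on the log2 scale, and 247 were above 1. These sizes hold for genes chosen by the threshold, which favours large changes. For 40 of the higher genes no parental array was above the background, and for 64 of the lower genes no dormant array was. In these the size was taken against signal at the background. To be tested, a gene seen only in the dormant line had to be on all its arrays. A gene seen only in the parental line did not have to be on all. The largest size, 7.87, was that of Rab38, which was at least 50.5-fold lower. Of the 249, 112 were above the background on all 7 arrays, 40 on all dormant and no parental array, and 50 on all parental and no dormant array. The arrays lay on 3 slides, each with arrays of both lines, and all 249 had the same sign within each slide, against 35.6% of all tested. The 249 were chosen on these same arrays, so that their agreement was largely fixed by the choice and is no separate support.

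The arrays carried the identity of leukocytes. Ptprc, Spi1 and Laptm5, which mark blood leukocytes and their myeloid members, were above the background on all 7 arrays. Markers of other blood cells were present in part. Of 6 mast cell and basophil markers, Ms4a2, Gata2 and Hdc were above the background on all 7 arrays and Kit on none, and of 6 neutrophil markers Mpo, Elane and Prtn3 were on all and S100a8 on none. Csf1r and Adgre1 of monocytes and macrophages were on all 7 arrays, while Cd14 and Mrc1 were on none. Of 5 T cell markers, Cd3e, Cd3d, Cd4 and Lck were on all and Cd8a on none, and of 5 B cell markers Cd79a, Cd79b and Pax5 were on all and Ms4a1 on none. Klf1 of erythroid cells was on all, and Alas2 on none. Of 5 melanocyte markers, Tyr, Dct and Sox10 were above the background on all 7 arrays and Mlana on none, and of 6 markers of fibroblasts and endothelium Pecam1 was on all and Col1a1, Dcn, Pdgfrb and Cdh5 on none. The summed linear signal of the neutrophil markers, relative to the 75th percentile, was 1.21 to 3.16 on the dormant arrays and 3.7 to 5.47 on the parental arrays, and that of the T cell markers 6.72 to 9.38 and 8.9 to 15.1. For melanocyte markers it was 0.282 to 0.655 and 0.278 to 0.46, and for fibroblast and endothelial markers 0.466 to 0.523 and 0.429 to 0.522. The part of other cells in the results was not tested. No gene of these marker lists passed the threshold between the lines. Arrays with the number 0 in their titles, 1 of each line, stood apart from the others of their line. In 25 of 81 gene lists and classes both had a lower median than all other arrays of their line, and in 4 a higher one. Both lay on the same slide, together with 1 more parental array. A further fit without both arrays was chosen after the data had been seen, and the named genes that it took out of the calls are given near the end.

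Genes were gathered in lists of pathways, cell types and protein families. The lists were written with earlier results of these data known, and some members were known to differ. The shares below are therefore a description, and may be raised by that choice. A gene can count in more than 1 theme, as Rab38 and Il1rl1 do. Blood cell identity held the largest share, with 13 of 130 genes past the threshold, or 10.0%, 6 of them higher and 7 lower in the dormant line. Immune genes followed with 10 of 213 (4.69%), 8 higher and 2 lower, and structural genes with 13 of 416 (3.12%), 5 higher and 8 lower. Metabolism gave 7 of 434 (1.61%), stress responses 2 of 119 (1.68%) and signalling 3 of 237 (1.27%), close to the 1.08% of all genes. The cell cycle gave 1 of 233 (0.43%), and neither chromatin (52 genes) nor translation (172) gave any. Of the 81 lists, 45 had no gene past the threshold, 16 had 1 and 20 had more.

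**Figure D1:**
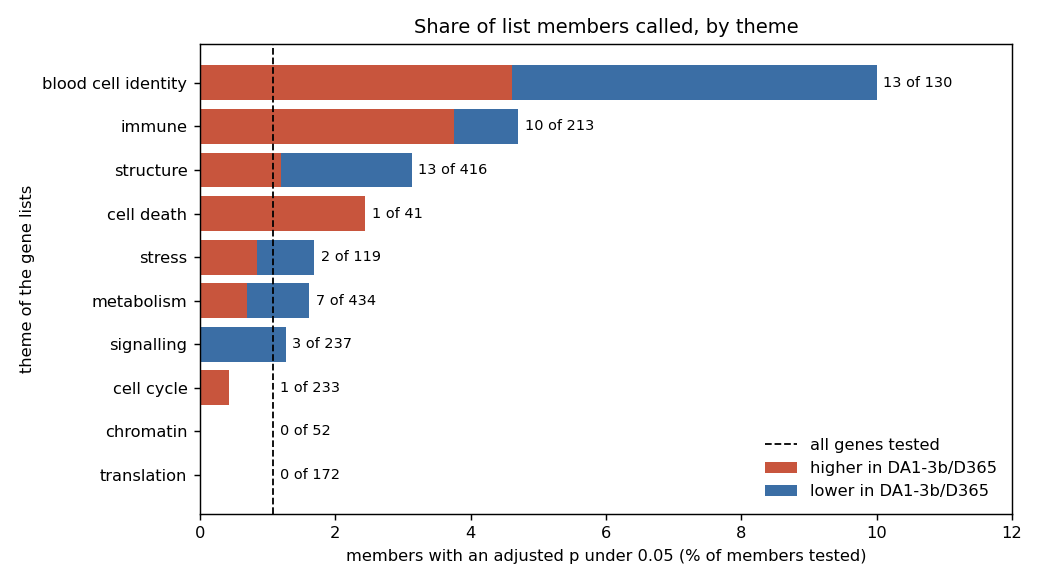
Share of the tested genes of each theme, in percent, that passed an adjusted p of 0.05 in the fit of 4 DA1-3b and 3 DA1-3b/D365 arrays, split into genes higher and genes lower in the dormant line. The dashed line is the share over all genes tested, 1.08%. The lists were written with earlier results of these data known, which may raise the shares. Blood cell identity (10.0%) and immune genes (4.69%) lie furthest above it, and translation and chromatin are at 0.

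Mast cell and basophil genes moved in both directions. Of 33 tested, 6 rose (Fcer1g, Il1rl1, Cd200r2, Cd200r4, Rab27b and Tph1) and 2 fell (Rab38 and Ddc). The median change of the 33 was 0.15, with 19 positive, against -0.02 over all genes. Without both arrays numbered 0 the median was 0.02, and Fcer1g, Il1rl1, Cd200r2, Rab38 and Ddc passed. Fcer1g encodes the signalling chain that the high affinity IgE receptor shares with other Fc receptors. Its values were -1.96, -1.19, -1.43 and -1.92 on the DA1-3b arrays and 1.47, 1.40 and 1.46 on the DA1-3b/D365 arrays. All dormant arrays were above all parental arrays, by 3.07 ± 0.23 (SE, n = 3 and 4, adjusted p = 0.000606).

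Il1rl1 encodes ST2, the receptor of IL-33 on mast cells, basophils and other immune cells. It was at -6.74, -6.72, -6.80 and -6.84 on the DA1-3b arrays, none of them above the background, and at 0.76, -1.39 and -1.35 on the dormant arrays. The signal was at least 16.1-fold higher in the dormant line (adjusted p = 0.00103), where this bound sets the dormant mean against the lowest signal that counts as above the background on the parental arrays. Another probe of Il1rl1 was above the background on 1 parental array. Il18rap, the accessory chain of the IL-18 receptor, stands in the same gene cluster. It was between -6.84 and -6.72 on all DA1-3b arrays and at -1.80, -1.72 and -1.62 on the dormant arrays, at least 7.74-fold higher (adjusted p = 9.66e-06). By the probes that represent them, both receptors were above the background in the dormant line only. Il18r1, which lies between them in the RefSeq order of GRCm38.p6, was above the background on 1 dormant and no parental array and was not tested. Il1r1, Il1r2 and Il1rl2 were at the background on all 7 arrays.

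The promoter windows of the genes that the comparison turns on are shown as RefSeq gives them on GRCm38.p6, 250 bases before to 50 after the start, with letters that match the core of a motif in capitals. For Il1rl1, the upstream of the listed starts (chr1:40429320-40429619, + strand) holds GATAAG, the letters that GATA factors of mast, erythroid and other blood cells bind, at 2 places. For F13a1, the gene with the largest fall among those above the background on all 7 arrays, the upstream window (chr13:37050195-37050494, - strand) holds GATAAG once. For Ass1, the window chr2:31470020-31470319 (+ strand) holds CACGTG, the E-box that MYC and related factors bind, once. RefSeq lists a further start for Il1rl1 (chr1:40439379-40439678) and for F13a1 (chr13:37049164-37049463), and neither of these windows, which are not printed, holds GATAAG.
Il1rl1: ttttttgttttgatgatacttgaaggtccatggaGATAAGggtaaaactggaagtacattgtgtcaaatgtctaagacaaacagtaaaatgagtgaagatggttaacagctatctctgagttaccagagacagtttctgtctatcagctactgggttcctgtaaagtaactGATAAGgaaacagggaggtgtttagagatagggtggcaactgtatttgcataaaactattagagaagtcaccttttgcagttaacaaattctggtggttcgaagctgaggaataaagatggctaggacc
F13a1: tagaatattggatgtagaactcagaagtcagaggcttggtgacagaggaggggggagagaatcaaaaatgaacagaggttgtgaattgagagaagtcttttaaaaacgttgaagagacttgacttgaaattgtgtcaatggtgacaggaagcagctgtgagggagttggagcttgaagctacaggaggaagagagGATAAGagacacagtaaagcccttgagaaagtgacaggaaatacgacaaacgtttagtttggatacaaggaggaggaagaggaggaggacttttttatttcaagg
Ass1: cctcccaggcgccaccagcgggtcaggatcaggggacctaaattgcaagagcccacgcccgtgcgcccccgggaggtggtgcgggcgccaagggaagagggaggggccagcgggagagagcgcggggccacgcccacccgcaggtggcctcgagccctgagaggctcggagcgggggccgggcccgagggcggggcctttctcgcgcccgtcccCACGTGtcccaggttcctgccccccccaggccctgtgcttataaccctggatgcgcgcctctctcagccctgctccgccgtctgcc

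Among the CD200 receptors, which sit on myeloid cells, Cd200r2 and Cd200r4 rose. Cd200r2 was at -6.95, -4.99, -5.30 and -5.35 on the DA1-3b arrays, at the background on each, and at 0.06, -0.31 and -0.27 on the dormant arrays, at least 22.5-fold higher (adjusted p = 0.00107). Cd200r4 was between -2.97 and -2.68 on the parental arrays and at -1.81, -2.01 and -1.98 on the dormant arrays, a change of 0.94 (adjusted p = 0.0387) that passed in none of the fits without 1 array. Cd200r1, the inhibitory receptor, changed by 0.57 (adjusted p = 0.869) and Cd200r3 by 0.77 (adjusted p = 0.974). The Cd200r genes resemble each other in sequence, and signal may cross between their probes.

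Rab27b, a GTPase of secretory granules, rose from -0.38, -0.56, -0.43 and -0.24 to 1.09, 0.95 and 0.86 (1.37 ± 0.16, adjusted p = 0.00579). Rab38, a GTPase of lysosome-related organelles such as melanosomes and platelet granules, went the other way. It was at 0.83, 1.11, 0.85 and 0.54 on the parental arrays and at -7.31, -6.99 and -6.81, at the background, on the dormant arrays. It was at least 50.5-fold lower in the dormant line (adjusted p = 9.66e-06), the largest bound among the genes named here. Both belong to the list of 83 genes of lysosomes and related organelles, of which no other passed. Rab32, a further GTPase of these organelles, passed without both arrays numbered 0 and was higher in the dormant line.

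Genes of serotonin handling, a group set together after their values had been seen, did not move together. Tph1, the rate-limiting enzyme of serotonin synthesis outside neurons, was at -3.07, -2.17, -2.39 and -2.74 on the parental arrays and at -1.15, -1.05 and -1.23 on the dormant arrays, a rise of 1.45 (adjusted p = 0.037). Ddc, the decarboxylase of the next step, was at -0.77, 0.95, 0.59 and 0.54 on the parental arrays and at the background on all dormant arrays, at least 35.5-fold lower (adjusted p = 0.000105). The serotonin transporter Slc6a4 rose from -4.05, -2.58, -2.65 and -2.64 to 1.26, 1.25 and 1.12 (4.19 ± 0.37, adjusted p = 0.00159). Thus the enzyme of the first step and the transporter were higher, and the enzyme of the last step was not above the background. The vesicular transporter Slc18a2 changed by -0.31 (adjusted p = 0.94), and Tph2, Maoa and Maob were at the background on all arrays. The rise of Tph1 passed in 2 of the 7 fits without 1 array, and not without both arrays numbered 0.

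Neutrophil and granule genes had lower values in the dormant line. Of 21 tested, 2 fell (Ngp and Ms4a3), none rose, and 5 were positive, with a median of -0.33 against -0.02 over all genes. The median of the list on single arrays, taken after subtracting the mean of each gene, was between 0.17 and 0.40 on the parental arrays and between -0.37 and -0.18 on the dormant arrays. This was the only one of 81 lists in which all dormant arrays were below all parental arrays, as they were for 3.33% of single genes. Ngp, a protein of neutrophil granules, was at -2.26, -1.82, -1.83 and -1.87 on the parental arrays and at -4.56, -4.92 and -5.06 on the dormant arrays, of which 1 was above the background (-2.90 ± 0.20, adjusted p = 0.000381). Ms4a3, a membrane protein of granulocyte and monocyte progenitors, fell from 3.49, 4.0, 3.86 and 3.68 to 2.34, 2.18 and 2.08 (-1.56 ± 0.18, adjusted p = 0.00639). Both genes separated the lines with no overlap.

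Granule enzymes differed among themselves, and none passed with all arrays. Elane, the neutrophil elastase, changed by 0.06 (adjusted p = 0.992) and the related protease Prtn3 by -0.70 (adjusted p = 0.915). Mpo, the myeloperoxidase of neutrophil granules, was at 1.92, 1.69, 1.26 and 0.95 on the parental arrays and at 0.55, -2.18 and -1.99 on the dormant arrays, with the dormant array numbered 0 closest to the parental ones. Its change of -2.67 ± 0.65 missed the threshold (adjusted p = 0.216). Prg2, the major basic protein of eosinophils, was between 2.52 and 3.1 on the parental arrays and at 1.45, -0.71 and -0.65 on the dormant arrays (-2.86, adjusted p = 0.0623). Epx, the eosinophil peroxidase, changed by -2.25 (adjusted p = 0.243). Without both arrays numbered 0, where 207 of 23036 genes (0.899%) passed, 5 of the 21 genes of the list passed, all lower. They were Ngp, Ms4a3, Mpo (-3.39, adjusted p = 0.0124), Prg2 (-3.51, adjusted p = 0.00701) and Epx (-3.13, adjusted p = 0.0109).

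Of 24 genes of monocytes, macrophages and dendritic cells, 2 fell (F13a1 and Itgax) and none rose, while 13 were positive and the median was 0.08. F13a1, the catalytic subunit of clotting factor XIII and a gene of monocytes and platelets, was at 3.32, 5.16, 4.87 and 4.75 on the parental arrays and at -4.34, -1.85 and -1.82 on the dormant arrays. The lines were far apart on every array (-7.19 ± 0.71, adjusted p = 0.00281), and another probe of F13a1 gave -5.50. Itgax, the CD11c integrin of dendritic cells, was at the background on all dormant arrays and at least 7.28-fold lower (adjusted p = 0.00378). Lgals3, the galectin of macrophages, was between 1.67 and 3.73 on the parental arrays and between -0.69 and 0.85 on the dormant arrays, and passed without both arrays numbered 0 (-2.78, adjusted p = 0.0116). Of 26 erythroid, megakaryocyte and progenitor genes, the platelet collagen receptor Gp6 alone passed, with a fall of 2.08 on the log2 scale (adjusted p = 0.0357). Only 1 dormant array had Gp6 above the background. None of 19 lymphoid genes passed, 5 were positive and the median was -0.26.

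**Figure D2:**
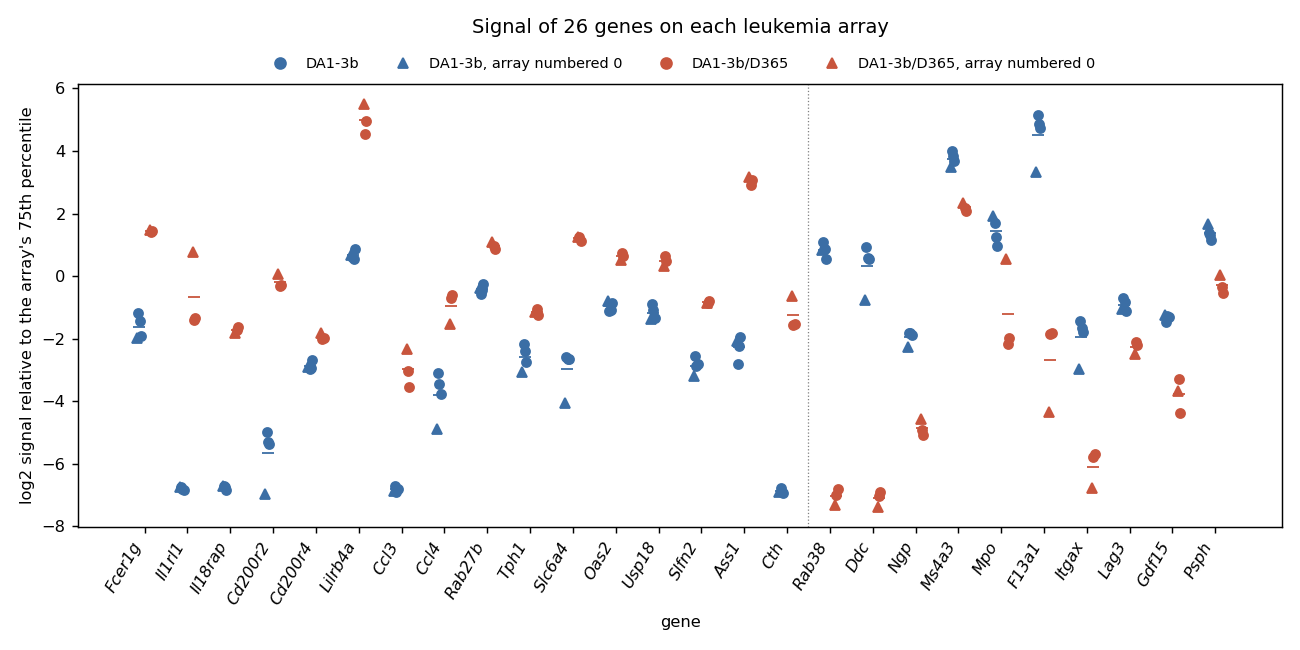
Log2 signal relative to the 75th percentile of the array (vertical axis) of 26 genes (horizontal axis) on each of the 4 DA1-3b arrays (blue) and the 3 DA1-3b/D365 arrays (red). Triangles are the arrays numbered 0, short bars are the means of a line, and the dotted line parts 16 genes higher in the dormant line from 10 lower. Fcer1g, Lilrb4a and Ass1 show no overlap between the lines, and the dormant triangle of Mpo (0.55) lies away from its other dormant arrays (-2.18 and -1.99).

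Interferon response genes had slightly higher values in the dormant line. Of 47 tested, 2 rose (Oas2 and Usp18), none fell, and 38 were positive, with a median of 0.21 against -0.02 over all genes. The list median was between -0.29 and 0.10 on the parental arrays and between 0.13 and 0.21 on the dormant arrays, without overlap. Oas2, an enzyme that makes the oligoadenylates which activate the antiviral RNase L, rose from -0.80, -1.11, -1.08 and -0.86 to 0.52, 0.73 and 0.64 (1.59 ± 0.16, adjusted p = 0.00307). Usp18, which removes ISG15 from proteins and dampens signalling of the interferon receptor, rose from -1.37, -0.90, -1.08 and -1.32 to 0.32, 0.65 and 0.50 (1.66 ± 0.18, adjusted p = 0.00506). In 10 of the 47 genes, Ifi35, Irf9, Irgm1, Oas1a, Ifi27, Ifi47, Oas1g and Tgtp2 beside these, all dormant arrays were above all parental arrays, and in none were they all below. Over all genes tested the shares were 5.03% above and 3.33% below. Of the 10, only Oas2 and Usp18 passed the threshold. Isg15 changed by 0.21 (adjusted p = 0.974) and Irf7 by 0.30 (adjusted p = 0.952). Of 31 genes of MHC and antigen presentation none passed, with 24 positive and a median of 0.09.

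The Gimap and Slfn genes, GTPases and growth regulators of lymphoid and myeloid cells, had a median change of 0.41, with 12 of 14 positive. Slfn2, which is needed for quiescence of T cells, rose from -3.20, -2.54, -2.87 and -2.81 to -0.86, -0.85 and -0.81 (2.02 ± 0.19, adjusted p = 0.00224). The dormant values lay close together, above all parental ones. Gimap3 changed by 2.52 (adjusted p = 0.127) and passed without both arrays numbered 0 (2.81, adjusted p = 0.018).

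Of 38 cytokines and chemokines, 2 rose and none fell. Ccl3, which draws monocytes and T cells, was at the background on all parental arrays (-6.89 to -6.72) and at -2.33, -3.03 and -3.55 on the dormant arrays, at least 3.24-fold higher (adjusted p = 0.00055). Its neighbour Ccl4 rose from -4.87, -3.11, -3.46 and -3.78 to -1.53, -0.69 and -0.61 (2.86 ± 0.44, adjusted p = 0.0278) and passed in 2 of the 7 fits without 1 array. Of 55 cytokine and chemokine receptors, Il1rl1 and Il18rap rose and Tgfbr3, the TGF-beta coreceptor betaglycan, fell (at least 1.28-fold, adjusted p = 0.0344, passing in 1 of the 7 fits without 1 array). Il10ra, the ligand binding chain of the IL-10 receptor, was at -2.51, 1.96, 2.18 and 2.13 on the parental arrays and at -6.86, -3.25 and -3.57 on the dormant arrays. Within each line the array numbered 0 was lowest. The change of -5.50 ± 1.37 missed the threshold (adjusted p = 0.234) and passed without both arrays numbered 0 (adjusted p = 0.0021).

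Immune inhibitory and costimulatory surface genes moved in both directions, with 2 of 27 higher (Lilrb4a and Cd55), 1 lower (Lag3) and a median of 0.04. Lilrb4a, an inhibitory receptor of myeloid cells with ITIM motifs, was at 0.68, 0.60, 0.55 and 0.88 on the parental arrays and at 5.51, 4.53 and 4.97 on the dormant arrays. The dormant line was above the parental line on every array by more than 3 units, with a change of 4.33 ± 0.25 (adjusted p = 0.000148). Its probe may share signal with near-identical Lilr genes. Cd55, which speeds the decay of complement convertases, rose by 2.04 (adjusted p = 0.041) and passed in 1 of the 7 fits without 1 array. Its probe was above the background on only 1 parental array. Lag3, an inhibitory receptor that binds MHC class II, fell by 1.35 (adjusted p = 0.014). Vsir, the inhibitory receptor VISTA, was lower by 2.19 on the log2 scale with an adjusted p of 0.325, and passed without both arrays numbered 0 (-2.47, adjusted p = 0.0198).

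In metabolism, 7 of 434 genes passed (1.61%, close to the 1.08% of all genes). Among them was 1 gene each of the arginine, cysteine and serine lists. Ass1, the argininosuccinate synthase that lets cells make arginine from citrulline, was at -2.07, -2.81, -2.23 and -1.95 on the parental arrays and at 3.18, 2.91 and 3.08 on the dormant arrays. All dormant arrays were above all parental arrays by over 4 units, and the change was 5.32 ± 0.23 (adjusted p = 4.78e-05). It was the only one of 16 arginine and urea cycle genes that passed, 8 of the 16 were positive and the median was -0.03. Cth, the cystathionine gamma-lyase that makes cysteine from cystathionine, was at the background on all parental arrays (-6.92 to -6.78) and at -0.62, -1.55 and -1.52 on the dormant arrays, at least 10.8-fold higher (adjusted p = 4.78e-05). Of 20 methionine and cysteine genes it alone passed, with 16 positive and a median of 0.26.

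Psph, the phosphatase of the last step of serine synthesis, fell from 1.68, 1.40, 1.31 and 1.14 to 0.05, -0.36 and -0.53 (-1.66 ± 0.21, adjusted p = 0.00989). It fell while 17 of the 20 serine, glycine and one-carbon genes were positive (median 0.22), none of which passed. Ggt1, the gamma-glutamyltransferase that breaks down glutathione outside the cell, fell by 2.07 (adjusted p = 0.00182), as the only one of 33 glutathione and antioxidant genes. Only 1 dormant array had Ggt1 above the background. Of 40 genes of drug and xenobiotic metabolism, Ugt1a6b rose by at least 16-fold (adjusted p = 0.000903) and Cyp2s1 fell by at least 1.85-fold. Ugt1a6b shares exons with other Ugt1a genes, and another of its probes, above the background on 1 parental array, gave 2.18 on the log2 scale.

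The 35 genes of the ATF4 stress response, which cells start when amino acids are short or protein folding fails, had a median change of 0.29, with 28 positive. The list median was between -0.25 and 0.03 on the parental arrays and between 0.17 and 0.20 on the dormant arrays. Cth rose and Gdf15 fell, and the others did not pass. Gdf15, a cytokine that stressed cells secrete, was at -1.25, -1.47, -1.27 and -1.31 on the parental arrays and at -3.67, -3.29 and -4.36 on the dormant arrays (-2.45 ± 0.26, adjusted p = 0.00405). It moved against the median of its list, and missed the threshold without both arrays numbered 0 (-2.48, adjusted p = 0.0765). Asns changed by 0.42 (adjusted p = 0.612), Pck2 by 0.61 (adjusted p = 0.462) and Atf4 by 0.24 (adjusted p = 0.929).

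Growth genes shifted little, and none of the lists of protein synthesis had a gene past the threshold. Ribosome biogenesis genes had a median change of 0.35, with 75 of 78 positive, while the list median was between -0.40 and 0.26 on the parental arrays and between 0.04 and 0.50 on the dormant arrays. The highest value of each line was on the array numbered 0. Without both of them the median was 0.33, and within the 3 slides the shift was 0.16, 0.57 and 0.31. Translation factors (48 of 55 positive, median 0.16) and aminoacyl-tRNA synthetases (33 of 39, 0.19) were alike in direction. Within 1 of the slides, however, their medians were -0.07 and 0.01. Mitochondrial ribosomal proteins (67 of 77, median 0.17) were at -0.11 within the same slide. These shifts overlapped between the arrays of both lines.

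Cell cycle lists overlapped between the arrays of both lines. Of 60 genes of the G1 to S transition and DNA replication, 52 were positive with a median of 0.15 and none passed. Of 62 genes of mitosis 29 were positive with a median of -0.01. Without both arrays numbered 0, 49 of the 60 were positive (median 0.13) and 16 of the 62 (median -0.09). Among 39 CDK inhibitors, quiescence genes and p53 targets, Cdkn2a alone passed. Cdkn2a, which encodes the INK4A and ARF tumor suppressors, rose from -1.40, -1.08, -1.33 and -2.22 to 0.64, 1.04 and 0.76 (2.32 ± 0.28, adjusted p = 0.00856), with no overlap. Without both arrays numbered 0 it missed the threshold (2.44, adjusted p = 0.106). Of 41 apoptosis genes Bcl2a1d, an inhibitor of cell death, rose by 4.12 ± 0.22 (adjusted p = 0.0001), with only 1 parental array above the background. Its paralog Bcl2a1c rose by at least 1.21-fold (adjusted p = 0.000244), and as the Bcl2a1 copies are near-identical, which of them gave the signal is uncertain.

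Hypoxia response genes had 4 of 27 positive and a median of -0.29, and none passed. This list followed the arrays numbered 0, which were at -1.08 in the parental line and -1.04 in the dormant line, while the others were between 0.22 and 0.72. Without both, its median was -0.27. Glycolysis genes had 10 of 28 positive and a median of -0.16, with the same arrays at -0.59 and -0.50. The difference between array number 0 and the others was thus larger for these lists than the difference between the lines.

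**Figure D3:**
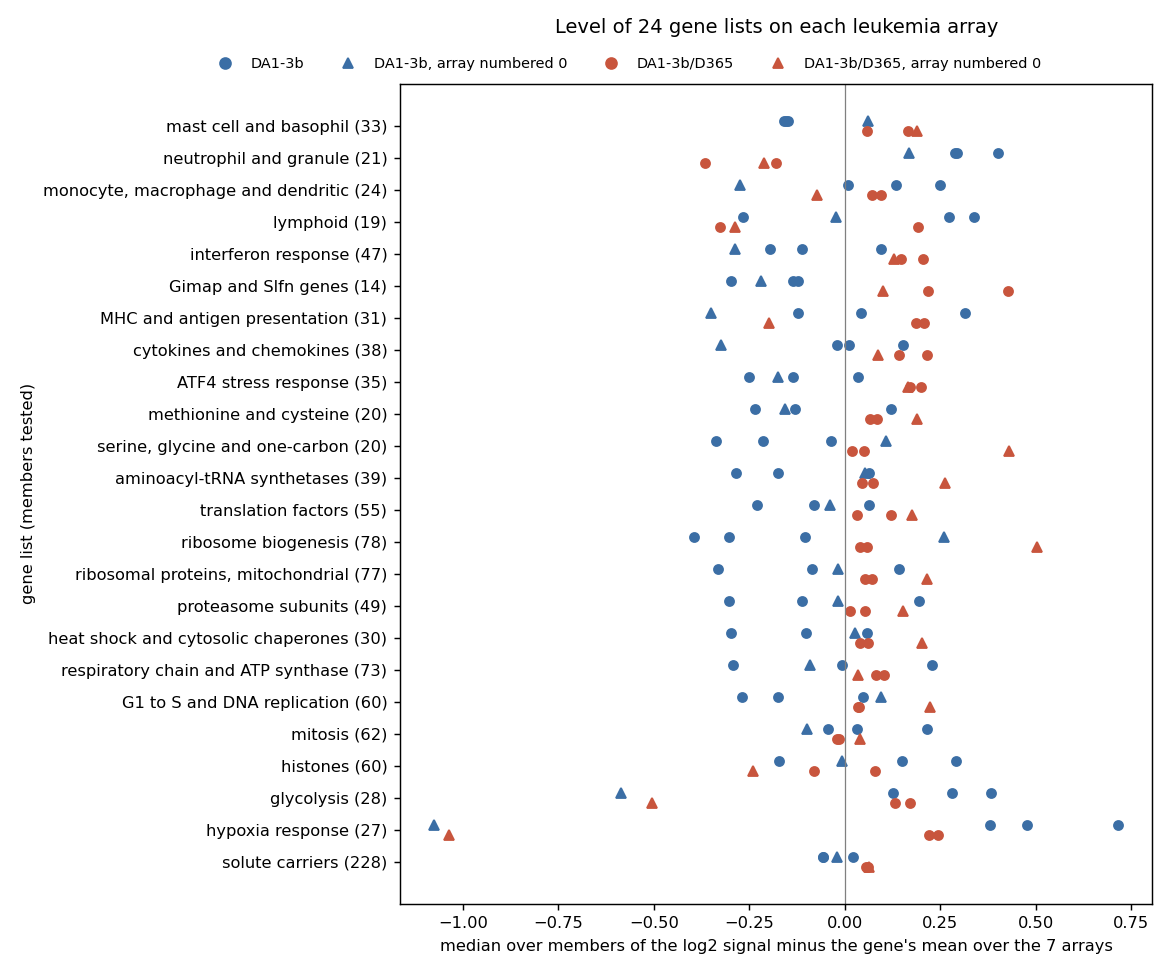
Median over the members of 24 gene lists (rows) of the log2 signal minus the mean of each gene (horizontal axis), for the 4 DA1-3b arrays (blue) and the 3 DA1-3b/D365 arrays (red), with the arrays numbered 0 as triangles. Neutrophil and granule genes lie apart with all dormant arrays below, interferon response, ATF4, Gimap and Slfn genes and solute carriers with all dormant arrays above, and the hypoxia response separates the arrays numbered 0 (-1.08 and -1.04) from all others. Of single genes, 3.33% lie apart with all dormant arrays below and 5.03% with all above.

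Over the 81 lists, all dormant arrays were above all parental arrays in 4 (4.94%), which were the interferon response, the ATF4 stress response, the Gimap and Slfn genes and the solute carriers, and below in 1 (1.23%), the neutrophil and granule genes. In the other 76 lists the arrays of both lines overlapped. Among all single genes tested, the shares were 5.03% above and 3.33% below. Separation of this kind was thus no more frequent among the lists than among single genes.

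Structural genes gave 5 higher and 8 lower. Intu, a planar polarity effector needed to build the primary cilium, rose by 6.22 ± 0.31 (adjusted p = 8.98e-05) as the only one of 57 cilium genes. Avil, an actin binding protein of the villin family, rose by 5.27 ± 0.31 (adjusted p = 0.000194), while Pls1, a plastin that bundles actin, fell by 1.01 (adjusted p = 0.0316), out of 94 actin genes. Of 50 genes of the extracellular matrix and its proteases, the collagens Col5a3 (at least 2.80-fold) and Col6a3 (2.44 on the log2 scale, adjusted p = 0.0152) rose. Col6a3 was above the background on 2 parental arrays. F13a1 and Thbs1, a matrix glycoprotein that activates TGF-beta, fell, Thbs1 by at least 2.73-fold (adjusted p = 0.0226), where 3 of 4 parental arrays were above the background. Of 51 integrins and adhesion receptors Itgax fell, as did the junctional adhesion molecule F11r (-1.30, adjusted p = 0.0296). Of 30 kallikreins and protease inhibitors, Klk8 fell by at least 8.42-fold. Tfpi, the inhibitor of the tissue factor pathway, fell with a log2 change of -1.77 (adjusted p = 0.0185), with only 1 dormant array above the background.

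Sarcomere genes, set together after their values had been seen, held some of the largest falls. Tnnt1, the troponin T of slow skeletal muscle, was at 4.55, 5.01, 4.75 and 4.71 on the parental arrays and at 0.82, 1.18 and 1.31 on the dormant arrays (-3.65 ± 0.19, adjusted p = 0.0001). Tnni1, the slow troponin I, fell by 2.95 ± 0.34 (adjusted p = 0.00647) and Myom1, which links thick filaments, by at least 1.85-fold (adjusted p = 0.0096). The cardiac myosin gene Myh6 rose by at least 2.44-fold (adjusted p = 0.0462). The other troponin genes tested (Tnnt3, Tnni2, Tnni3, Tnnc1 and Tnnc2) did not pass, with changes from -0.66 to -0.01.

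Of 228 solute carriers, 3 rose and 4 fell, with 135 positive and a median of 0.06. Slc6a4 rose, as did the zinc transporter Slc30a4 (at least 4.92-fold) and Slc24a3, an exchanger of sodium, calcium and potassium (1.93, adjusted p = 0.0298). The urea transporter Slc14a1 fell by at least 7.07-fold, Slc44a3 by at least 2.26-fold, the bicarbonate transporter Slc4a5 by at least 1.81-fold and the insulin-responsive glucose transporter Slc2a4 by at least 1.79-fold. For Slc2a4, 3 of the 4 parental arrays were above the background. Abca13 rose by at least 4.21-fold, out of 30 ATP-binding cassette transporters, and Kcnj10, an inward rectifier of potassium, fell by at least 3.94-fold, out of 41 channels.

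Signalling lists held few genes past the threshold. The Notch regulator Dtx4 fell by 1.65 on the log2 scale, out of 42 Wnt, Notch and Hedgehog genes, and Gdf15 and Tgfbr3 fell out of 36 genes of TGF-beta and BMP. Of 17 protein kinase C and phospholipase C genes the phospholipases Plcd4 (at least 5.74-fold) and Plch2 (-2.07 on the log2 scale) fell. Plch2 was above the background on only 1 dormant array. Of 60 histone genes 9 were positive, with a median of -0.16, and H2bc21 alone passed (-1.23). Tfr2, a transferrin receptor that senses iron, fell by 1.79 on the log2 scale out of 28 iron, heme and globin genes. Aldh1a3, which makes retinoic acid, fell by at least 2.15-fold, and the aldo-keto reductase Akr1c21 rose by 2.02 on the log2 scale. Of 58 CD antigens 3 rose, and Cd248, a marker of stromal cells, fell by at least 1.41-fold, while among 162 olfactory and vomeronasal receptors Olfr1280 alone passed, at least 2.30-fold higher.

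**Figure D4:**
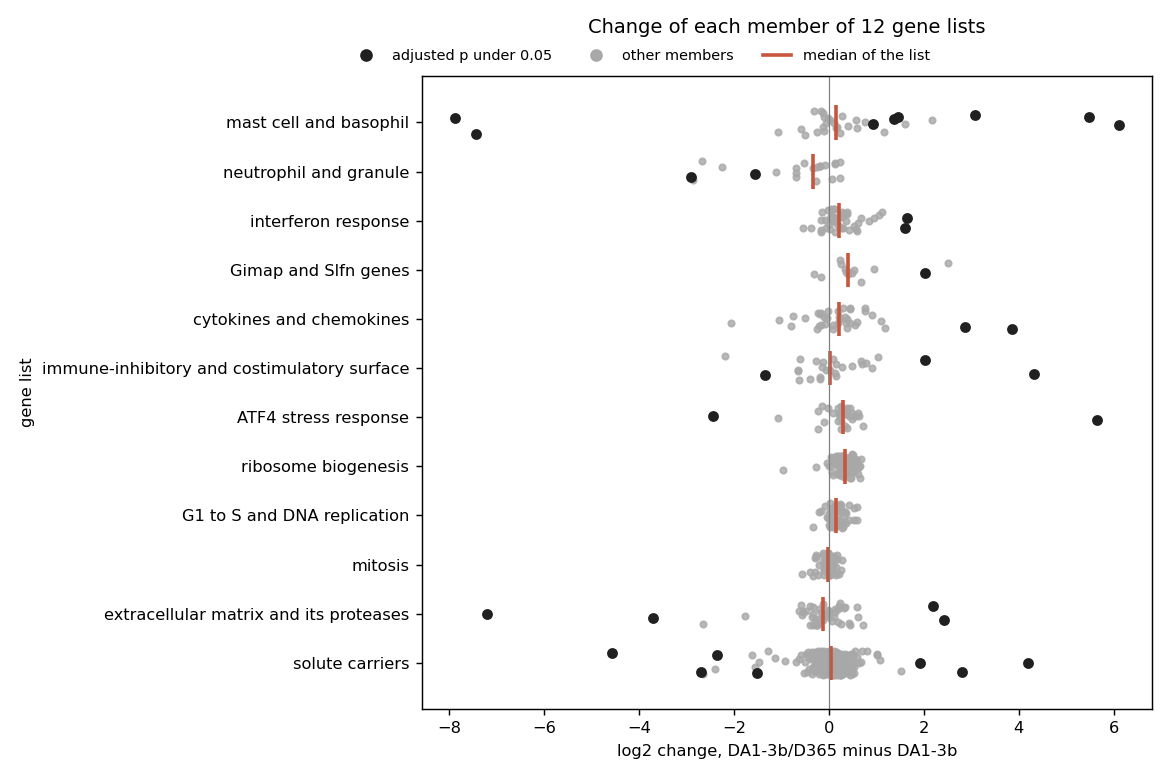
Log2 change, dormant minus parental, of every tested member of 12 gene lists (points), with members at an adjusted p under 0.05 in black and the list median as a red bar. Most points lie near 0, neutrophil and granule genes have a median of -0.33 and ATF4 genes of 0.29, and the genes past the threshold lie mostly far from the median of their list.

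Other genes with the largest changes belonged to no list examined. Among genes above the background on all 7 arrays, the parathyroid transcription factor Gcm2 rose by 3.80, Fam167a by 2.89 and the piRNA pathway helicase Tdrd9 by 2.53 on the log2 scale. The falls were -3.89 for the synaptic scaffold Dlg3, -3.56 for Exoc3l4, -3.27 for the clock transcription factor Arntl2, -2.98 for the homeobox gene Dlx4, -2.89 for Ccm2l, -2.74 for the long noncoding RNA Redrum and -2.51 for Lrrc4b. Among genes measured in 1 line only, Dhrs2 was at least 13-fold higher in the dormant line, the RasGAP Dab2ip 12.1-fold, Prr19 8.65-fold, Platr26 6.74-fold and Afap1l2 5.89-fold. Dhdh was at least 17.9-fold lower, the adaptor Sh2b2 14.2-fold, Uaca and Ppp1r21 both 11.1-fold, the helicase Ddx43 10.3-fold and Lrrc74a 7.66-fold. All genes of this paragraph passed the adjusted threshold.

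Some of the changed genes are neighbours. Among 190 genes past the threshold with a symbol, 86 higher and 104 lower, 6 pairs were next neighbours, and 5 pairs moved in the same direction. Neighbours were taken among the genes on the array, in the RefSeq gene order of GRCm38.p6, and a single chromosome was left out. How often such pairs arise among all tested genes was not counted. Among the 5 were Ccl3 with Ccl4 and Cd200r4 with Cd200r2 (higher), Prr19 with Tmem145 (higher) and Tnni1 with Lad1 (lower). Tnni1 changed by -2.95 on the log2 scale, and Lad1, at the background on all dormant arrays, was at least 2.29-fold lower. Afap1l2, at the background on all parental arrays, was at least 5.89-fold higher, and its neighbour Ablim1 fell by 1.74 on the log2 scale.

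Some calls changed with the fit. Without both arrays numbered 0, the named genes Akr1c21, Cd200r4, Cd248, Cdkn2a, Col5a3, F11r, Gdf15, Gp6, H2bc21, Lag3, Olfr1280, Plch2, Pls1, Rab27b and Slc4a5 missed the threshold, as did Ablim1, Myh6, Myom1, Slc2a4, Slc30a4, Tmem145 and Tph1, with adjusted p from 0.0581 (Gp6) to 0.282 (Myh6). With the slide as a block, Cd200r4, Cd248, Myh6, Pls1, Redrum, Slc24a3, Tgfbr3, Thbs1, Tmem145 and Tph1 missed it, with adjusted p from 0.0515 (Slc24a3) to 0.103 (Redrum). In the 7 fits without 1 array, Myh6, Slc30a4, Slc24a3, Ablim1 and Tmem145 passed in 1 and Slc2a4 in 2.

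Short motifs of regulators were searched, on both strands, in the promoter windows of 300 bases that RefSeq gives for 68 of the higher and 81 of the lower genes. A higher or lower gene counts once when any of its windows matches. Beside them stands the share of 32851 single promoter windows of all genes. That share is in a different unit and does not compare directly with the shares of genes. GATAAG was in 7.4% of the higher, 9.9% of the lower and 7.4% of all promoters. The E-box CACGTG was in 10.3%, 9.9% and 7.2%, and TGATGNAA, the element that ATF4 binds with CEBP factors, in 5.9%, 1.2% and 4.0%. TGACNNNGC, the antioxidant response element, was in 13.2%, 16% and 12.4%. The CCAAT box was in 36.8% of the higher, 50.6% of the lower and 37.4% of all promoters, and TTCNNNGAA, which STAT factors bind, in 4.4%, 9.9% and 8.3%. TGANTCA, the AP-1 site, was in 7.4%, 11.1% and 7.8%, and TGACGTCA, the CRE, in 2.9%, 1.2% and 1.8%. ACCGGAAGT, an ETS site, was in none of the higher or lower genes and in 1.1% of all promoters. Counted by gene as the higher and lower ones were, of the 10614 tested genes with a window 6.6% held GATAAG, 11.2% CACGTG, 2.9% TGATGNAA, 16.2% TGACNNNGC and 42.6% CCAAT. TTCNNNGAA was in 8.6% of them, TGANTCA in 6.5%, TGACGTCA in 3.5% and ACCGGAAGT in 2.4%. The matches are a description of the letters in these windows.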

How the data were processed

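Total RNA (50 ng per sample, per the labels) was labelled with Cy3 and hybridized to Agilent mouse arrays of 62976 spots, 1 sample per array. The authors deposited, for each spot, the intensity that Feature Extraction 10.7.3.1 gave after background subtraction, without scaling between arrays. The methods name GeneSpring but no normalization or test. Here control spots and 814 outlier spots on the 7 arrays were left out, spots of the same probe were averaged (56605 probes), and the log2 intensity was expressed relative to the 75th percentile of each array. Probes were joined to 22907 symbols by accession, and the brightest probe stood for its gene. Between 49.5% and 54.5% of spots were well above the background.

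The 4 DA1-3b and 3 DA1-3b/D365 arrays were fitted in R 4.3.3 with limma 3.58.1 (two-sided tests), over genes detected above the background on 3 or more of them, with Benjamini-Hochberg adjustment over all of them and a threshold of 0.05. The fit left 5 degrees of freedom. The number of arrays limits the precision, with a median residual SD of 0.33. Where no array of a line was above the background, the change is a lower bound. On simulated data of 23036 genes, the fit recovered 17% of changes of 1, 70% of 2 and 96% of 4 on the log2 scale. Of 105 called genes, 5 were unchanged ones. The simulated noise was normal and independent between arrays, whereas residuals of some real arrays on a shared slide correlated. These rates may therefore not carry over to the real arrays.

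The lists of genes and the arrays compared were chosen with earlier results of these data known. The genes named were those of a rule, which takes up to 4 members past the threshold per list, the 10 largest rises and falls among genes above the background on all 7 arrays, and the 10 largest bounds each way among genes measured in 1 line only. Clone and predicted names were passed over, and some genes that the rule takes are not reported here. Isg15, Irf7, Asns, Pck2, Atf4, Mpo, Prg2, Epx, Lgals3, Il10ra, Vsir, the further Cd200r and Il1r genes, Bcl2a1c and the genes of serotonin and sarcomere groups fall outside it and were chosen after their values were seen. Alternatives were quantile normalization, normexp (on the median spot signal, as the files have no mean signal), the background filter, the mean of all probes, the slide as a block, a replicate block, all 24 arrays, other variance models, array weights, the deposited series table and leaving out each array. Values of the study's own comparisons were not used.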

Additional observations from a re-analysis of the deposited data

Results flagged for a closer look

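In 4 parental arrays, the highest or lowest value was checked for its distance from the others, over the 79 named genes past the threshold and the 81 lists, and 14 stood far apart. Chance flags about 1 in 20 such groups. Array DA1-3b 0 was the distant one for Arntl2 (highest, 0.629), Kcnj10 (highest, -2.169), Ngp (lowest, -2.263), Slc6a4 (lowest, -4.049), Tfr2 (lowest, -1.428) and Thbs1 (lowest, -4.998), all as log2 signal relative to the 75th percentile. It was also distant in the median of mast cell and basophil genes (highest, 0.062) and of immune inhibitory and costimulatory surface genes (lowest, -0.26). Array DA1-3b 1 was distant for Cd248 (highest, -4.011) and Olfr1280 (highest, -5.487), both below the background or near it. It was lowest in the medians of stromal, epithelial and melanocyte genes (-0.435), potassium, sodium and calcium channels (-0.459) and olfactory and vomeronasal receptors (-0.464). Il18rap was lowest on DA1-3b 3 (-6.841), where all parental arrays were at the background. What set these arrays apart was not tested.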

How the results depend on the processing

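None of the 79 named genes past the threshold changed direction under any alternative run. Against 249 genes (115 higher, 134 lower), requiring a signal above the background on all 7 arrays gave 106 (60 and 46) of 19292 tested. Of the 249, only 112 met that filter. The replicate block gave 120 (53 and 67) and the fit of all 24 arrays 392 (199 and 193). Normexp background correction gave 81 lower genes of 168, and array weights 204 lower of 362. Leaving out each array gave between 163 and 272 genes, between 77 and 112 higher and between 86 and 160 lower, with the fewest without DA1-3b replicate 2. Quantile normalization (212), no background filter (244), the mean of all probes (233), the slide as a block (227), trended and robust variance (237) and the series table (249) stayed within 1.5 times. The fit without both arrays numbered 0, added after seeing the data, gave 207 (79 and 128), of which 157 were among the 249. Of the 79 genes, 32 missed the threshold with the replicate block, 20 with normexp, 15 without both arrays numbered 0 and between 4 and 17 without 1 array. Cd200r4, Cd248 and Pls1 passed in none of the fits without 1 array, Cd55, Redrum, Tfpi, F11r, Tfr2, Tgfbr3 and Thbs1 in 1 and Gp6 and Ccl4 in 2. Of the 249, 204 passed with the slide as a block and 146 in all 7 fits without 1 array. Residuals of same-numbered arrays correlated at 0.51 (number 0), -0.04 (number 1) and 0.16 (number 3). Only the arrays numbered 0 were thus clearly alike, and these also lay on 1 slide. Pairs of both lines on 1 slide correlated at 0.51, -0.09, 0.72 and 0.31, and the slide as a block ended the calls of 6 of the 79 genes. The cause of the other differences was not tested. With this number of arrays, the simulated fit missed most changes of 1 on the log2 scale.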

Other observations

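Further list genes missed the threshold with all 7 arrays and passed without both arrays numbered 0. Rab32 (adjusted p = 0.0457) and Rab11fip5 (adjusted p = 0.0106) were higher in the dormant line in that fit. Cd163l1, Ryk, Matn1, Slc22a3, Prss57, Me1, Ptprk and Tspan18 were lower, with adjusted p from 0.00311 (Cd163l1) to 0.0438 (Ryk). Me1, the cytosolic malic enzyme, was at 2.59, 4.11, 3.91 and 3.77 on the parental arrays and at 1.40, 1.94 and 1.86 on the dormant arrays. Its arrays did not overlap, and the change was -1.86 with all arrays (adjusted p = 0.1) and -2.03 without both numbered 0 (adjusted p = 0.0186). The receptor phosphatase Ptprk changed by -2.15 (adjusted p = 0.157) with all arrays. The tetraspanin Tspan18, at the background on all dormant arrays, was at least 1.17-fold lower with all arrays (adjusted p = 0.131).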
